A study of Mus musculus with 13 samples.

Results

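The comparison set 3 control mammary glands at day 2 of involution against 3 control glands at day 7 of lactation, which are 6 of the 13 libraries of a study on conditional loss of the tyrosine kinase Jak1 in female mice. All libraries labelled as controls at either stage were taken, by their titles. The labels call the controls wildtype and give no strain, age or litter size, nor do they say whether the controls carry unrecombined alleles or a Cre. The lactating controls were M42186, M43768 and M44175, and the involuting controls M44448, M43768 and M43914, each number being that of a mouse. M43768 occurs at both stages, and whether the same animal gave both samples is not stated. RNA was taken from whole frozen gland, so that fewer cells of a type and less RNA per cell cannot be told apart in any value given here.

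In a lactating gland, prolactin acting through STAT5 keeps the secretory epithelium producing milk proteins, lactose and fat. When suckling stops, milk stasis is known to bring local cytokines such as leukemia inhibitory factor, activation of STAT3, a first wave of epithelial death and an acute phase response, while the alveoli still stand. Later involution breaks down the matrix and refills the gland with adipocytes. The comparison asks which of these programmes had shifted in the controls by the second day.

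Levels are FPKM (fragments scaled by transcript length and library size) divided by a factor per library, called rescaled FPKM below, and differences are between means of log2(rescaled FPKM + 1), involution minus lactation, with their standard error over 3 libraries a stage. In each sentence the lactation values stand in the order M42186, M43768, M44175 and the involution values in the order M44448, M43768, M43914. A gene is said to have risen or fallen only where the mean difference was 2 or more in size (4-fold on this scale) and all 3 libraries of one stage lay beyond all 3 of the other. Stages that do not overlap are called apart, whatever the fold. No p-value is given, because each stage has its own deposited table and a difference between tables cannot be told apart from one between stages.

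Of 23951 symbols, 11471 entered the comparison. Among these, 187 genes rose (1.63% of those that entered) and 202 fell (1.76%), while the stages were apart at any fold for 3184 genes in the upward direction (27.8%) and for 1833 in the downward direction (16.0%). The counts of each list below are to be read beside these shares, and no call or a single call in a short list is near them. The median level of the risen genes was 2.57 rescaled FPKM at lactation and 24.5 at involution, and that of the fallen genes 44.1 and 4.57. The median difference over all genes that entered was 0.16, with quartiles of -0.32 and 0.61. Scaling to total FPKM outside milk proteins gave 247 risen and 161 fallen genes, and quantile normalization 165 and 219. At the threshold, the last risen gene had a difference of 2.0022 and the first outside one of 1.99838, and in the downward direction the sizes were 2.00474 and 1.99501.

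**Figure D1:**
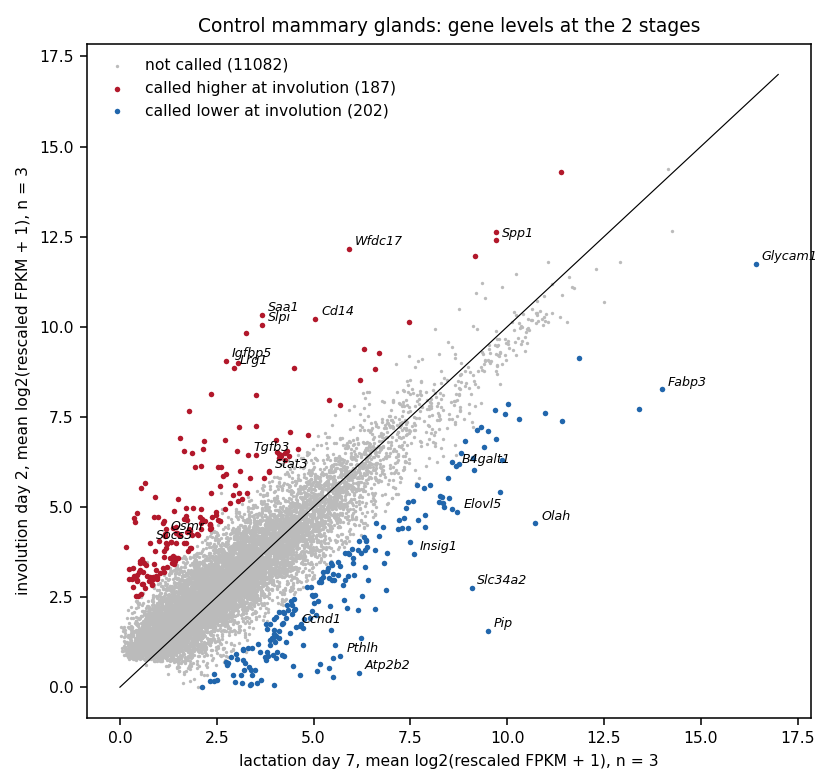
Mean log2(rescaled FPKM + 1) of each gene at lactation day 7 (horizontal axis) and at involution day 2 (vertical axis), 3 control libraries a stage, with the line of equal level. Red points are the 187 risen genes, blue points the 202 fallen genes and grey points the rest, and the fallen genes reach to higher lactation levels than the risen ones.

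The deposited tables differed in overall level. The factors were 0.602 to 0.710 at lactation and 1.48 to 1.61 at involution, so that without rescaling every difference of a well expressed gene moved up by about 1.26 and that of the median gene by 0.97. All changes given here are relative to this shift. Depth relative to the mean of the 6 libraries ran from 0.699 to 1.43, absolute depth is unknown, and Pearson correlations across genes were 0.913 to 0.969 within a stage and 0.817 to 0.870 between stages. The first principal component (62.1% of the variance) separated the stages, and the second (19.8%) set lactation M44175 at 46.9 against -36.8 and -27.2 for the other lactating glands. Lactation M43768 held lymphoid transcripts (summed T and NK cell markers of 70.0 against 3.64 to 13.1 elsewhere), and involution M44448 the most skeletal muscle. Of the 389 genes called, 126 risen and 146 fallen ones were called also without each of the 6 libraries in turn.

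Several of the largest rises were in genes of acute phase and antibacterial proteins. Saa1, an acute phase apolipoprotein, stood at 18.2, 4.94 and 16.8 at lactation and at 1834, 2994 and 378 at involution, a difference of 6.66 ± 1.05. Saa2, a near-identical copy whose reads may be shared with Saa1, went from 18.4, 1.96 and 14 to 1276, 2438 and 236. The third serum amyloid gene, Saa3, rose from 7.47, 0.609 and 8.96 to 211, 337 and 308. All 3 were high in every involuting gland, with M43914 lowest for Saa1 and Saa2 but not for Saa3. Slpi, an inhibitor of neutrophil elastase with antibacterial action, was at 11.3, 7.4 and 18.5 at lactation and at 947, 1083 and 1180.1 at involution (difference 6.40 ± 0.36), and its 3 involution values lay closer together than those of the serum amyloids. Wfdc17, of the same four-disulfide core family, had 30.9, 30.8 and 219.8 at lactation and 2142, 5092 and 8837 at involution. Lrg1, a leucine-rich acute phase glycoprotein, rose by 5.93 ± 0.51 on the log2 scale from 13.8, 5.54 and 3.66 to 448, 542 and 416. Cd14, the co-receptor for bacterial lipopolysaccharide, was at 17.4, 32 and 58.3 while milk was made and at 1095, 1056 and 1472 on the second day after.

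Igfbp5 binds insulin-like growth factors and is a classical product of the involuting mammary epithelium. Its level was 7.6, 7.64 and 2.92 at lactation and 627, 579 and 408 at involution, a difference of 6.32 ± 0.42 with the stages far apart. Angptl4, a secreted inhibitor of lipoprotein lipase, rose from 5.33, 5.5 and 12.9 to 482, 391 and 702. Clca2, of a family of chloride channel regulators with closely similar mouse copies, rose by 5.87 ± 0.63, Rnase1, a secreted ribonuclease, by 5.36 ± 0.49, and the phospholipase gene Plb1 by 5.01 ± 0.53. Plb1 was listed at 0 in lactation M44175, where its other lactation values were 1.80 and 0.356.

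Several of the largest falls were in genes for the making of milk. Fabp3, which carries fatty acids in the secretory cell, was at 17726, 13180.0 and 18920.0 at lactation and at 143, 295 and 678 at involution (difference -5.74 ± 0.67). Olah, the thioesterase that releases medium-chain fatty acids for milk fat, went from 1877, 1039.7 and 2497 to 14.2, 27.6 and 28.2. Glycam1, a mucin-like milk protein, had the highest level of the fallen genes, 47724, 95746 and 149360.0 against 1187, 2552 and 13513, with M43914 the highest of the involuting glands. Lao1, an amino acid oxidase secreted into mouse milk, fell from 14449, 10327 and 8583 to 191, 183 and 270.4. Pip, the prolactin-induced protein, had the largest mean difference (-7.93 ± 1.65) but also the widest spread at lactation, 2658, 92.7 and 1502, against 0.117, 3.56 and 4.07 at involution.

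Transporters and signals of the secretory cell fell as far. Slc34a2, a sodium phosphate cotransporter, was at 673, 702 and 335 at lactation and at 5.84, 5.82 and 5.48 at involution. Atp2b2, the plasma membrane pump that moves calcium into milk, went from 84.5, 97.6 and 43.5 to 0.102, 0.708 and 0.203. Pthlh, the parathyroid hormone-related protein by which the lactating gland draws calcium from bone, was at 53.3, 51.6 and 47.7 and then at 1.05, 0.631 and 0.796, a difference of -4.83 ± 0.11 with the 3 values of each stage close together. The largest changes were taken among genes called also without each library in turn and with symbols other than clone or model numbers, which leaves out the larger fall of D730048I06Rik (-5.24). The remaining genes of the 12 largest such falls were the glycine-metabolizing enzymes Gldc (-4.85 ± 0.46) and Gnmt (-4.70 ± 0.64), the gasdermin gene Gsdmc (-4.87 ± 0.62), which has closely similar mouse copies, and the dopamine receptor gene Drd4 (-4.64 ± 0.31). In these 4 genes, as in every gene called, the stages are apart by the rule.

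**Figure D2:**
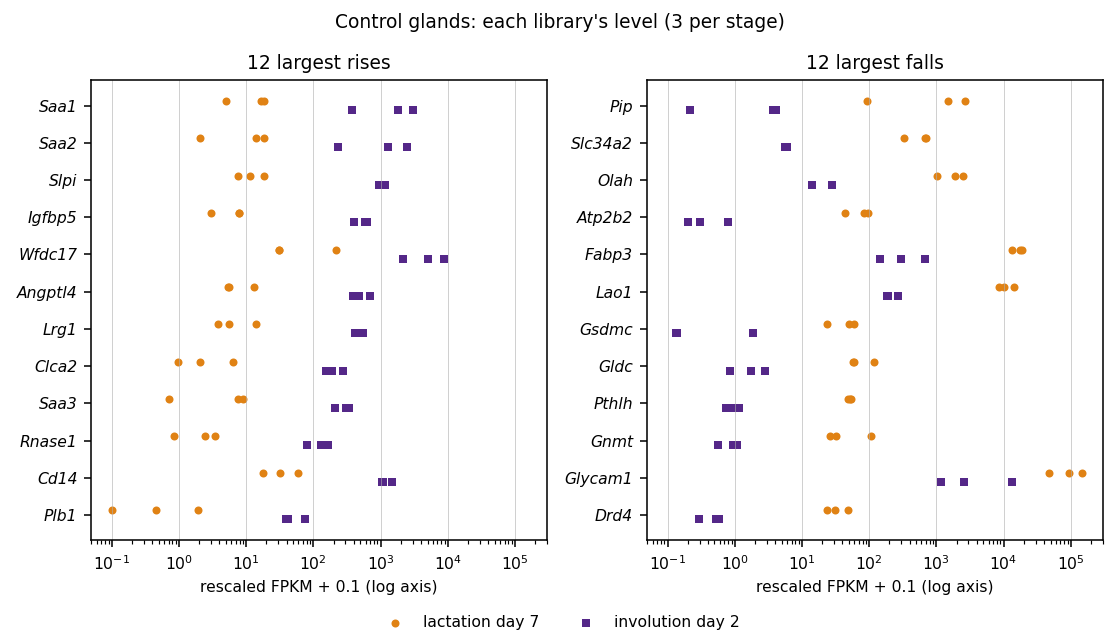
Rescaled FPKM (plus 0.1, log axis) of the 12 largest rises (left) and the 12 largest falls (right), clone and model numbers left out, in each of the 3 lactating (orange circles) and 3 involuting (purple squares) control glands. The stages do not overlap for any of the 24 genes, as their selection required, and Pip, at 92.7 in lactation M43768, spreads widely at lactation.

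Milk protein genes could be followed only in part, because the tables list several abundant ones at 0. Wap, for whey acidic protein, and 3 casein genes (Csn1s1, Csn2, Csn1s2b) were at 0 in all 6 libraries. Csn1s2a and Csn3 were listed at 0 in every lactating gland but at 20728, 13073 and 26052 and at 4899, 6709 and 9384 at involution, and Trf, transferrin, was at 25563, 32698 and 19935 at lactation and listed at 0 at involution. A lactating gland transcribes these genes abundantly, so zeros beside such values can be failed estimates and no change is given for them. Of 13 milk protein and fat globule genes that entered, 5 fell and 1 rose, and the median difference was -1.60. Cidea, a lipid droplet protein required for milk fat secretion, was at 2729, 2779 and 2689.8 and then at 150.0, 149 and 201 (difference -4.04 ± 0.14). Cel, the bile salt-stimulated milk lipase, had -2.81 ± 0.42, the lactoperoxidase gene Lpo -2.94 ± 0.42 and the fat globule mucin Muc15 -2.08 ± 0.45. The alpha-lactalbumin gene Lalba overlapped between the stages, 9880.2, 21736 and 34787 against 3245, 7185 and 11413. Ltf, the iron-binding antibacterial protein lactoferrin, was the member that rose, from 1734, 379 and 288 to 3465, 4291 and 4319.6.

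Genes of milk fat synthesis held many of the falls. Of 29 genes of fatty acid and triglyceride synthesis, 14 fell and none rose, the stages were apart downward for 22 and upward for 2, and the median difference was -2.06 against 0.16 over all genes. Elovl5, which elongates polyunsaturated fatty acids, went from 683, 325 and 332 to 27.1, 27.9 and 29.2. Insig1, which holds back sterol-regulated transcription, had 161, 215 and 207 at lactation and 14, 10.6 and 11.5 at involution. The carboxylase Acaca, which makes malonyl-CoA, had a difference of -2.56 ± 0.39, and Acly, which makes cytosolic acetyl-CoA, one of -2.65 ± 0.61. The fatty acid synthase gene Fasn overlapped between the stages: it was at 1243, 392 and 138 at lactation and at 165, 75.7 and 50 at involution, the lactating M44175 lying below the involuting M44448. Srebf1, the regulator of lipogenic genes, overlapped as well (72.5, 69.6 and 50.9 against 58.1, 44.4 and 13.1). Dgat2, which completes triglycerides, was apart in the other direction, 18.6, 21.1 and 18.1 against 117, 46.6 and 38.1, short of the 4-fold.

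Of 21 genes of cholesterol synthesis, 5 fell, none rose, 16 were apart downward and the median difference was -1.77. The number that fell was 10 without lactation M44175, 4 without lactation M42186 (median -1.30) and 0 without rescaling (median -0.63). The isomerase Idi1 was at 37.5, 17.8 and 35.7 and then at 2.32, 1.29 and 6.29. Sqle, which starts the sterol branch, went from 48.3, 60.8 and 39.5 to 7.09, 5.6 and 10.8. The sterol reductase genes Hsd17b7 and Tm7sf2 had differences of -2.58 ± 0.23 and -2.36 ± 0.18.

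For glucose uptake and lactose synthesis, 2 of 12 genes fell, 8 were apart downward and the median difference was -1.06, which turned to 0.10 without rescaling. B4galt1, the galactosyltransferase of lactose synthase, was at 391, 433 and 407 at lactation and at 63.5, 63.2 and 81.3 at involution, a difference of -2.56 ± 0.13. The glucose transporter gene Slc2a1 was apart, 57.9, 45.6 and 30.2 against 8.8, 10.4 and 11.8, at a difference of -1.97 ± 0.29 just under the fold.

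Metal transport held changes in both directions: 4 of 18 calcium and zinc genes fell and 2 rose, with a median of -0.39 that was 0.77 without rescaling. Beside Atp2b2, the falls were in Slc39a8, a zinc and manganese importer (338, 422 and 559.9 to 56.8, 51.9 and 128), in Slc30a2, which loads zinc into secretory vesicles (-2.41 ± 0.28), and in Slc30a4, whose loss makes mouse milk poor in zinc (-2.18 ± 0.54). The metal-binding metallothioneins rose, Mt2 from 78.4, 9.04 and 13.5 to 413, 572 and 425 and Mt1 from 324, 132 and 124 to 1335, 1319.7 and 813.

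Prolactin and STAT5 signalling was described over its receptors, transducers and lineage factors. Among 21 genes of the lactogenic hormone axis that entered, Pthlh alone fell, 12 were apart downward and 4 upward, and the median of -0.78 was -0.43 without involution M43914 and turned to 0.43 without rescaling. The prolactin receptor gene Prlr was at 10.4, 16.2 and 13.7 and then at 5.03, 6.18 and 5.24 (difference -1.14 ± 0.19). Stat5a had 30.9, 33 and 24.4 at lactation and 22.7, 20.2 and 9.91 at involution, and Stat5b a difference of -0.42 ± 0.18. Both of these differences were positive without rescaling. Elf5, an alveolar transcription factor, was apart at 589, 574 and 569 against 193, 279 and 205, and the STAT5 target Cish overlapped (16.5, 32.1 and 16.8 against 21, 14.8 and 19.6).

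A receptor, the transducer STAT3 and a feedback inhibitor of the interleukin 6 class rose at involution. Of 14 genes of this class that entered, these 3 rose, none fell, 7 were apart upward and 1 downward, with a median of 0.54. Osmr, the oncostatin M receptor, was at 1.52, 1.42 and 0.83 in lactating glands and at 18.2, 20.3 and 16.1 in involuting ones, a difference of 3.10 ± 0.17. Stat3, the transcription factor downstream of these receptors, went from 15, 18.7 and 8.65 to 76.2, 58 and 54.4, and its difference of 2.13 ± 0.34 was 1.82 without lactation M44175 and 1.98 without involution M44448, each of which ends the call. Socs3, the inhibitor that STAT3 induces in feedback, rose from 0.798, 1.26 and 0.218 to 12.8, 15 and 17.4. The ligand gene Lif was low throughout and apart, 0.377, 0.0522 and 0 against 2.5, 1.86 and 4.32 (difference 1.73 ± 0.30). Il6, Osm and Il11 stayed below 1 FPKM in too many libraries to enter.

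The shared receptor chain Il6st overlapped between the stages, 13.9, 11.7 and 7.22 against 20.8, 14.5 and 13.2. Jak1, the kinase whose loss the study addresses, overlapped too, at 23.5, 22.3 and 8.69 and 16.4, 15.4 and 15.3, and the sign of its difference of -0.08 ± 0.44 changed with the rescaling and with single libraries. The leukemia inhibitory factor receptor gene Lifr was apart downward at -0.55 ± 0.22, a difference that was 0.56 without rescaling.

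Of 27 STAT3 targets and acute phase genes, 14 rose, none fell, 20 were apart upward and the median difference was 2.06. Besides the serum amyloids, Lrg1, Cd14 and Igfbp5 described above, the list held Orm2, an acute phase lipid carrier (17.9, 4.89 and 12.2 to 187, 243 and 468, a gene with similar copies), the hemoglobin-binding Hp (4.14 ± 0.58) and the iron-siderophore binder Lcn2 (1969.7, 664 and 462 to 4536, 6753 and 8080.0). The transcription factor Cebpb was at 16.1, 12.9 and 11.8 and then at 67.6, 75.4 and 47.6, and its difference of 2.13 ± 0.23 was 1.99 without involution M43768. Cebpd, a STAT3 target tied to the first phase of involution, was apart by little (10.4, 30.3 and 4.63 against 30.9, 51.9 and 57.1), its difference of 1.87 ± 0.77 being 2.54 without lactation M43768. Spp1, osteopontin, went from 1080.3, 721 and 758 to 7257, 3126 and 6869. The summed macrophage markers moved with this list, being 113 to 159 at lactation and 291 to 403 at involution. Neutrophil markers summed to 2.36 to 10.4 at lactation and to 38.3 to 148 at involution. S100a8 is a member of both the STAT3 target list and the neutrophil list, so these are not separate observations. At involution S100a8 alone gave 33.1, 92.2 and 112 of the neutrophil sums of 38.3, 105 and 148. Of 14 macrophage markers 13 entered, whereas of 10 neutrophil markers 3 entered, with Mpo, Elane, Csf3r, Retnlg, Ngp and Camp below the filter. Their part in the result was not tested.

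**Figure D3:**
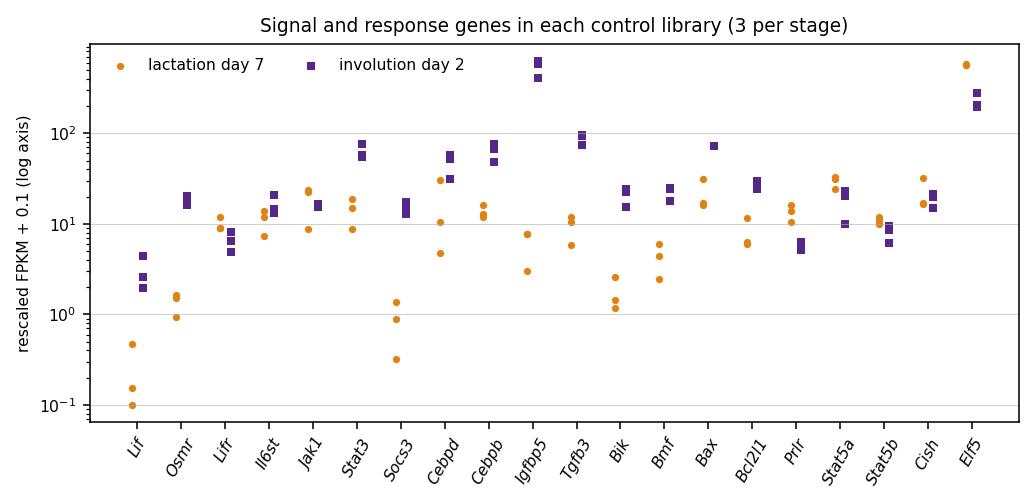
Rescaled FPKM (plus 0.1, log axis) of signal and response genes in each of the 3 lactating (orange circles) and 3 involuting (purple squares) control glands. Osmr, Stat3, Socs3, Igfbp5 and Tgfb3 lie higher in all involuting glands, while Jak1, Il6st and Cish overlap.

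Promoter letters are shown for the 2 genes with a match among 19 risen genes of the STAT3, immediate early and lysosome lists that had a RefSeq window (GRCm38.p6, 250 bases before the annotated start). Genes of a chromosome that was left out of this display are not among the 19. Searched on both strands were TTCNNNGAA, the letters of a STAT element, TGANTCA, those of an AP-1 element, and CACGTG, an E-box, and matches of different motifs may share letters. The matches are in capitals, 5′ to 3′ along the gene. Socs3 lies at chr11:117969367-117969616 on the minus strand, with TTCTTAGAA 154 bases before the start, and Orm2 at chr4:63362199-63362448 on the plus strand, with TGAATCA 207 bases before it.
Socs3: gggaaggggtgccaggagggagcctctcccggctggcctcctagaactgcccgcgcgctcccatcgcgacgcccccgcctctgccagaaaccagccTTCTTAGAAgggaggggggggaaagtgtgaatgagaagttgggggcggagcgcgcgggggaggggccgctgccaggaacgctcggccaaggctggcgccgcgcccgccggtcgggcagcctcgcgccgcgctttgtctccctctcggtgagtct
Orm2: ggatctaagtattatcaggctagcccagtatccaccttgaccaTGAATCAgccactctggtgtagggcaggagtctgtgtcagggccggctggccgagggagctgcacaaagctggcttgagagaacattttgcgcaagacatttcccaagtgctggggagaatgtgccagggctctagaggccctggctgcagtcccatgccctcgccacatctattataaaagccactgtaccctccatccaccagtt

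The STAT letters were present in 6.21% of 145 windows of risen genes, in 12.2% of 147 windows of fallen genes and in 5.98% of the windows of all genes that entered. The AP-1 letters stood in 8.28% of windows of risen and 4.76% of fallen genes (4.29% of all that entered), and the E-box in 7.59% and 8.84% (8.56%). A match describes letters and is not a binding site, and binding was not measured.

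Immediate early genes shifted in part. Of 19 genes, 3 rose, none fell, 9 were apart upward and the median was 1.22, and 7 rose without lactation M42186. Junb, an AP-1 subunit, was at 3.51, 2.8 and 3.58 and then at 38.3, 24.3 and 28. Gadd45a, a stress-induced growth arrest gene, went from 1.27, 1.76 and 0.897 to 19.6, 23.7 and 16.6, and Ier3, an early response gene, rose by 2.44 ± 0.55, a value of 1.94 without lactation M44175. Among 18 NF-kB and inflammatory mediators none reached the fold, 7 were apart upward and the median was 0.37, or 0.65 without lactation M43768. Over all genes 1.63% rose and 27.8% were apart upward. Of 18 chemokine genes 2 rose and 11 were apart upward. These were Ccl2, which attracts monocytes (0.239, 0 and 0.912 to 2.35, 6.05 and 7.22), and Ccl6 (11.1, 3.55 and 2.97 to 19.1, 15.5 and 43.1). Each lost its call without any 1 of 3 libraries, the lowest differences being 1.79 for Ccl2 and 1.58 for Ccl6, both without involution M43914. Quantile normalization ended both calls too, at 1.97 and 1.86, and without involution M44448 the number of chemokine genes that rose was 4.

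Among the BCL2 family, which sets the mitochondrial threshold for apoptosis, 2 of 14 genes rose, 6 were apart upward, 2 downward, and the median was 0.69. Bik, a killer with the BH3 domain alone, was at 1.36, 1.08 and 2.48 and then at 22.2, 15.2 and 24.3 (difference 3.04 ± 0.30). Bmf, of the same class and released from the cytoskeleton on cell detachment, rose from 2.37, 4.36 and 5.95 to 24.6, 24.4 and 17.9, a difference of 2.20 ± 0.34 that was 1.93 without lactation M42186. The pore-forming Bax was apart, 30.9, 16.8 and 16.2 against 72.7, 72.9 and 72, and so was Bcl2l1, whose main product protects cells, at 11.4, 5.83 and 6.23 against 24.4, 29.9 and 27.8. Both reached the fold without lactation M42186, at 2.08 and 2.02.

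Of 24 caspase and death receptor genes 1 rose, 11 were apart upward and 3 downward, with a median of 0.39. The shares over all genes were 1.63% risen, 27.8% apart upward and 16.0% apart downward. The risen one was the TWEAK receptor gene Tnfrsf12a (25.5, 9.39 and 24.8 to 47.9, 68.9 and 211), whose difference was 1.60 without involution M43914 and 1.78 without lactation M43768.

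Lysosomal genes, whose proteases have been tied to epithelial death in the first days of involution, included 17 of 32 genes that were apart upward and 2 downward. The median was 0.78, and 1 gene rose, or 2 without lactation M44175. Cd63, a membrane protein of late endosomes, was at 43.8, 33.2 and 87.8 and then at 239, 224 and 216, with a difference of 2.14 ± 0.41 that was 1.85 without lactation M43768. The cathepsin genes differed in direction: Ctsl was apart upward, 107, 124 and 204 against 475, 438 and 609, as was Ctsb, 158, 146 and 169 against 237, 321 and 357, whereas Ctsc was apart downward at 134, 86.4 and 143 against 25.2, 28.2 and 49.5.

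Of 15 genes for the uptake of dying cells 3 rose, none fell and 9 were apart upward. Tyro3, a receptor kinase that binds phosphatidylserine through bridging ligands, was at 2.05, 2.42 and 2.52 in lactating and at 19.1, 24.1 and 30.2 in involuting glands. Its ligand gene Gas6 went from 11.8, 7.49 and 4.37 to 58.5, 49 and 24.2, and Anxa1, a lipid-binding protein that limits inflammation, from 27.3, 8.18 and 16.4 to 70, 84.4 and 128.

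In the TGF-beta pathway 3 of 18 genes rose, none fell and 9 were apart upward. Tgfb3, the isoform known to mark milk stasis, was at 5.74, 11.8 and 10.4 at lactation and at 73.3, 95.3 and 93.2 at involution, a difference of 3.14 ± 0.31. Inhbb, an activin subunit, rose by 2.70 ± 0.29, and Ltbp3, which stores latent TGF-beta in the matrix, by 2.23 ± 0.47, or 1.87 without lactation M44175. Matrix proteolysis showed no rise to the fold in 19 genes, but 9 were apart upward and 2 downward, with a median of 0.63. Mmp3, stromelysin, was apart at 4.86, 1.99 and 4.59 against 22.8, 8.27 and 20.6, with a difference of 1.87 ± 0.53 that was 2.28 without involution M43768, and the aggrecanase gene Adamts5 fell from 71.7, 32.8 and 33.7 to 1.8, 1.49 and 2.86. Of 23 collagen and matrix genes Thbs1 alone rose (6.11, 0.391 and 0.294 to 15.5, 20.2 and 10.3) and 22 overlapped between the stages.

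Tight junction genes moved mostly but not all upward. Of 20 junction genes 3 rose, 1 fell, 11 were apart upward and 2 downward, and the median was 0.71. Cldn4 went from 3.84, 1.24 and 4.1 to 44.1, 60.8 and 115, and Cldn3 from 28.6, 22.4 and 34.7 to 104, 147 and 129, with a difference of 1.96 without lactation M43768. Cldn8, another epithelial claudin, fell from 90.4, 159.7 and 283 to 19.2, 23.4 and 34. Cldn5, the claudin of endothelium, rose from 2.37, 4.27 and 11.6 to 83.7, 63.9 and 57.3, and the summed endothelial markers, which include it, were 39.9 to 54.6 at lactation and 134 to 190 at involution. The part of endothelial content in this rise was not tested.

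None of 19 cell cycle genes reached the fold, 5 were apart downward, 14 overlapped, and the median of -0.67 was -0.06 without lactation M42186 and turned to 0.24 without rescaling. The proliferation antigen gene Mki67 was at 11.1, 7.62 and 1.47 at lactation, where M42186 was highest, and at 0.534, 1.25 and 0.899 at involution. Its difference of -1.76 ± 0.71 reached the fold without lactation M44175 (-2.50) and under quantile normalization (-2.05). Ccnd1, the G1 cyclin that drives alveolar growth, fell from 40.4, 24.9 and 10.7 to 2.59, 1.9 and 2.05 (difference -2.88 ± 0.54), while Rb1, the retinoblastoma protein that cyclin D kinases inactivate, rose from 4.06, 5.17 and 3.6 to 20.4, 25.2 and 31.9. Of 22 ER chaperone and stress genes Ddit3, the stress transcription factor CHOP, alone rose (2.8, 2.68 and 4.67 to 20.5, 27.8 and 13.7). None of 20 interferon-stimulated genes reached the fold, 11 were apart upward and the median was 0.67. Over all genes 1.63% rose, 1.76% fell, 27.8% were apart upward and 16.0% downward. At such shares, no call or a single one in a list of this size does not set it apart from genes at large.

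**Figure D4:**
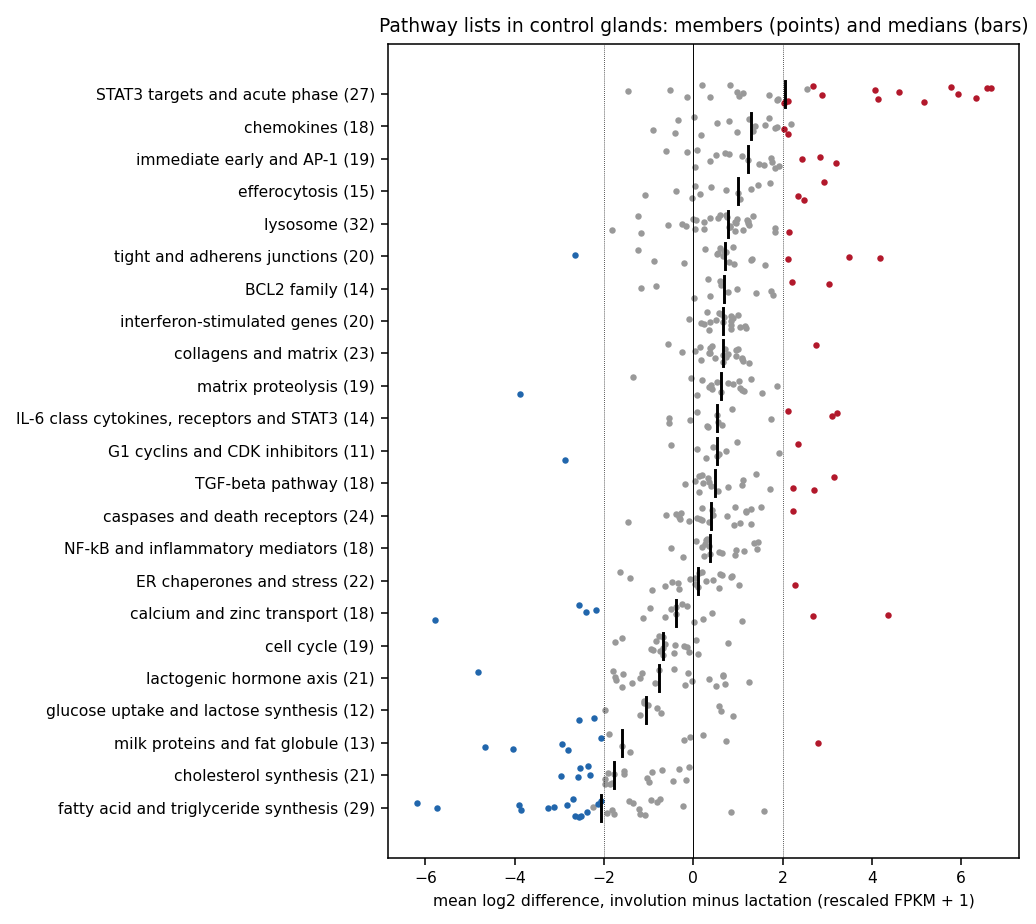
Mean log2 difference (involution minus lactation, rescaled FPKM + 1) of each member of the 23 pathway lists, with the number of members that entered in parentheses and a black bar at the median. Red points rose, blue points fell and grey points did neither, and medians run from -2.06 for fatty acid synthesis to 2.06 for STAT3 targets. The medians of the lactose, calcium and zinc, lactogenic and cell cycle lists turned positive without rescaling.

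Markers of the cells a whole gland holds were summed in each library. Luminal epithelial markers, which should dominate a lactating or early involuting gland, had sums of 1162, 1018 and 971 at lactation and 1145, 1458 and 1193 at involution, so the sums overlapped. Of its 13 markers 9 were apart upward, 3 downward and 1 overlapped, with a median difference of 1.11, and Elf5, the highest of them at lactation, was among those apart downward. Within that list Krt18, a luminal keratin, was apart at 76.8, 105 and 71 against 296, 385 and 219.7, and Kit, the receptor of luminal progenitors, rose from 0.376, 0.281 and 0.0737 to 6.15, 4.93 and 11.4. Basal epithelial sums were 308 to 737 and 239 to 406, with none of 10 markers apart. Macrophage sums did not overlap between the stages, as given above, 11 of 13 markers were apart upward, and Cd68, a lysosomal protein of macrophages, rose from 5.79, 4.01 and 0.228 to 22.1, 21.2 and 16.4, or by 1.83 without lactation M44175. The alarmin gene S100a8 rose from 5.35, 1.06 and 4.87 to 33.1, 92.2 and 112, while its partner S100a9 overlapped (2.72, 0.627 and 0 against 2.3, 10.3 and 31.8).

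Adipocyte sums were 1556, 1803 and 4145 at lactation and 6708, 5875 and 2744 at involution and overlapped through lactation M44175 and involution M43914. All 13 markers had positive differences, with a median of 1.23, 3 were apart upward and 10 overlapped. None rose by the rule, although the largest difference was 2.77, and 5 rose without involution M43914. The brown fat gene Ucp1 was at 66.7, 10.3 and 0.786 in the involuting glands and at no more than 1.14 in the lactating ones. Fibroblast sums overlapped (89.3 to 242 and 148 to 351), with 2 of 10 markers apart. Skeletal muscle sums were 8.04 to 537 in lactating and 67.9 to 1311 in involuting glands, and all 9 markers overlapped. Erythrocyte sums (109.7 to 563 and 55.6 to 802) and sums of B and plasma cell markers (124 to 186 and 84.6 to 207) overlapped too. The skin sums were 14.8 to 45.2 at lactation and 96.5 to 161 at involution, with the keratinocyte genes Krt1 and Lor below the filter. Of 3 skin markers that entered, Sbsn, an epidermal secreted protein, rose from 7.18, 3.01 and 1.76 to 153, 92.2 and 98.8, Krt15 fell (-2.42 ± 0.71, or -1.92 without involution M43914) and Krt10 overlapped. At involution Sbsn made up most of the skin sums. The part of cell content in the changes of other genes was not tested.

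**Figure D5:**
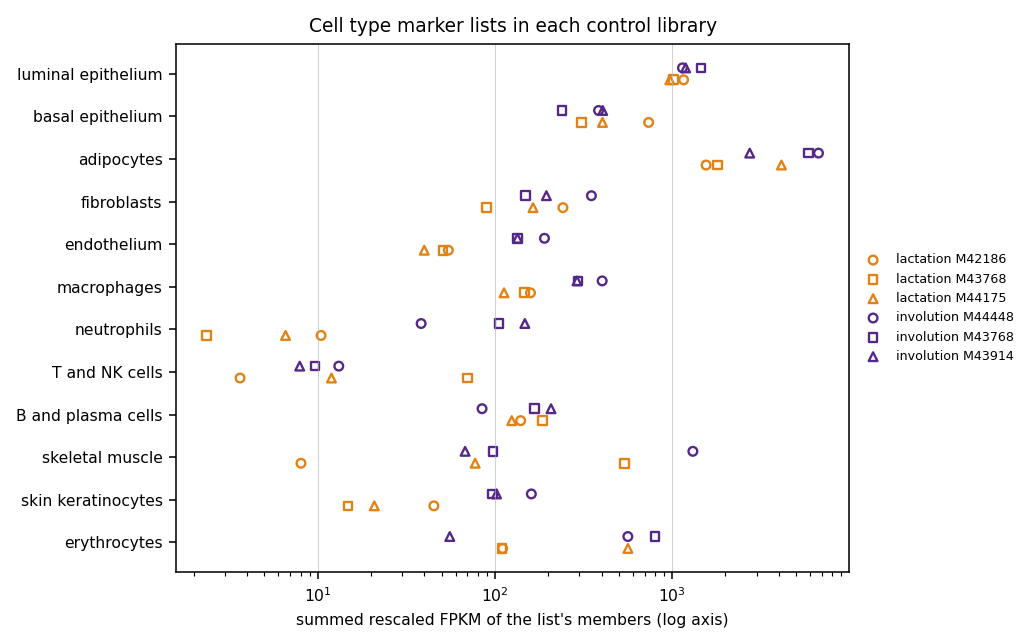
Summed rescaled FPKM (log axis) of the markers of 12 cell types in each control library, lactation in orange and involution in purple, with a symbol for each mouse. Macrophage, endothelial, neutrophil and skin sums lie higher in all 3 involuting glands, luminal sums overlap, and skeletal muscle is highest in involution M44448 (1311) and lactation M43768 (537). At involution the neutrophil sum is mostly S100a8 and the skin sum mostly Sbsn.

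The same stages were set side by side in the Jak1 knockout glands, 3 at lactation and 4 at involution, which share no library with the controls and lie in the same 2 tables. The labels call these females conditional knockouts and name no Cre line, and mouse number M43767 occurs at both stages among them. Of 11971 genes that entered there, 163 rose (1.36%) and 184 fell (1.54%). Of the 187 genes risen in controls, 108 rose in knockouts as well, which is 57.8% of the control list and 66.3% of the knockout list, 174 were apart in the same direction, 12 overlapped and 1 was apart in the opposite direction. Of the 202 genes fallen in controls 195 entered in knockouts and 144 fell, which is 71.3% of the control list and 78.3% of the knockout list. Of these 195, 188 were apart in the same direction, 7 overlapped and none was apart in the opposite direction. The share of all genes apart at any fold was not counted in the knockouts, so the 174 and the 188 have no background beside them. The rises that were not called in the knockouts were not tested for a difference between genotypes. Saa1 overlapped in the knockouts, at 122, 15.8 and 9.66 at lactation (M44174, M42734, M43767) and at 269, 61.7, 224 and 16.7 at involution (M43196, M43767, M44176, M44440). Socs3 rose there from 0.772, 0.378 and 0.662 to 5.59, 7.86, 5.58 and 6.64, a difference of 2.21 beside 3.23 in the controls. Stat3 was apart at 13.1, 13.7 and 16.7 against 39.6, 41.6, 41.4 and 47.4, with 1.49 beside 2.13, and Tgfb3 rose by 3.05 beside 3.14. Among the falls, Olah had -5.54 beside -6.19, Pthlh -4.21 beside -4.83 and B4galt1 -2.96 beside -2.56.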

How the data were processed

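RNA of whole mammary gland was sequenced from 6 control libraries, 3 a stage, after library preparation with a TruSeq kit on a HiSeq2000, per the labels' protocols. Per the submitters' processing notes, CASAVA, cutadapt and TopHat were used, and the build was mm9. The deposited values are FPKM per gene symbol in one table a stage, and what program, annotation, strand setting and scaling the authors applied stands in none of the sources used here. Columns were matched to samples by their titles, and no column was left without a sample. Read counts are unknown, so relative depth was read from the steps of values under 0.3 FPKM. Replicates are separate mice by number, except that 1 control and 1 knockout number each occur at both stages.

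The tables were joined on symbol. Each library was divided by its median ratio to the geometric mean over 7967 genes with at least 1 FPKM in all 6 libraries, and log2 values were taken after adding a pseudocount of 1, which shrinks differences of weakly expressed genes. A gene entered when 3 or more of the 6 libraries had 1 deposited FPKM or more, before rescaling. Since the factors were lower at lactation, genes seen only at involution enter at a lower rescaled level than genes seen only at lactation. Set aside were 1202 short RNA entries, 6693 genes below the filter, 4568 at 0 in all 6 libraries, 11 at 0 in all libraries of 1 stage and 6 with an exact 0 beside 10 FPKM or more in the same stage. The steps were run in Python 3.11.15 with pandas 2.3.3 and numpy 2.4.6, and tested on simulated data with known changes.

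Named were the 12 largest rises and 12 largest falls among genes called without each library in turn (clone and model numbers left out), up to 4 called members of each of 35 gene lists (23 of pathways, 12 of cell types), and a fixed set of regulators. Other members are named by their values, after these were seen, and a few that the rule names are not reported here. The libraries compared, the lists and the rule were chosen with earlier results of these data known. Promoter windows are RefSeq sequences of GRCm38.p6, matched by symbol for 145 of 187 risen and 147 of 202 fallen genes, and no gene coordinates of mm9 are given. Alternatives were other scalings, pseudocounts, filters, folds, treatments of zeros and leaving out each library.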

Additional observations from a re-analysis of the deposited data

Results flagged for a closer look

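Spp1, which encodes osteopontin, was apart in opposite directions in the 2 genotypes. In the controls its difference between involution and lactation was 2.68, from 1080.3, 721 and 758 rescaled FPKM to 7257, 3126 and 6869. In the Jak1 knockout glands it was -3.96, from 3968, 1372 and 1963 at lactation to 387, 68.2, 153 and 96.1 at involution. The stages did not overlap within either genotype, and the difference between the genotypes was not tested.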

How the results depend on the processing

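The number of genes called depended on settings that change the scale or the threshold. Without rescaling 1289 genes rose and 60 fell. A pseudocount of 0.1 gave 476 risen genes, and one of 5 gave 71 risen and 100 fallen. Asking for 1 FPKM in all 6 libraries left 83 risen genes, fewer because a gene below 1 deposited FPKM in any library then cannot enter. A difference of 1 gave 1194 and 783 genes, and one of 3 gave 56 and 65. Leaving out 1 library gave 174 to 261 risen and 194 to 227 fallen genes, the extremes without involution M43768 and without lactation M42186. The other scalings, filters and treatments of zeros stayed within 1.5 times the reported counts, and 157 risen and 161 fallen genes were called under each of the 4 other rescalings. Without rescaling the medians of 4 pathway lists turned sign: lactose synthesis to 0.095, calcium and zinc transport to 0.77, the lactogenic axis to 0.43 and the cell cycle to 0.24. Also without rescaling, B4galt1, Ccnd1, Cel, Cldn8, Hsd17b7, Idi1, Krt15, Lpo, Slc39a8, Sqle and Tm7sf2 kept their negative difference but not the 4-fold. No called gene that the naming rule picked turned sign under any alternative run. No paired analysis was possible because the stages share 1 mouse number. Depth is known only relative to other libraries, so no counting interval is given.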

Other observations

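Families outside the lists above were looked at after their values were seen. The shares over all genes to read beside their counts were 1.63% risen, 1.76% fallen, 27.8% apart upward and 16.0% apart downward. Of 29 genes of serine, glycine, proline, asparagine and polyamine metabolism that entered, 13 fell, none rose, 21 were apart downward and the median difference was -1.59. Odc1, the first enzyme of polyamine synthesis, was at 233, 310.1 and 504 rescaled FPKM at lactation and at 22.1, 25.7 and 51.3 at involution. Arg2, which makes ornithine from arginine, went from 54.4, 112 and 252 to 4.49, 6.75 and 5.37. Aldh18a1, which opens proline synthesis, went from 62.2, 68.4 and 35.0 to 5.89, 7.41 and 5.39. The serine synthesis genes Phgdh and Psat1 fell by 2.31 and 2.41 on the log2 scale.

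Of 192 solute carrier genes, 17 fell and 5 rose, 65 were apart downward and 56 upward, and the median was -0.10. Slc28a3, a nucleoside transporter, went from 546, 248 and 216 to 22.0, 56.0 and 46.9, and Slc5a8, a transporter of short-chain fatty acids, from 1.46, 0.660 and 0.571 to 16.9, 41.9 and 73.3. In the WFDC family 4 of 6 genes rose, Slpi, Wfdc17, Wfdc12 and Wfdc2, the first 2 being among the largest rises above. Wfdc2 was barely apart, 13.1, 1.58 and 7.27 against 13.8, 135 and 109 (difference 3.17 ± 1.25). Wfdc12 spread widely, 10.2, 2.29 and 13.4 against 70.9, 30.9 and 362 (difference 3.54 ± 1.22). None of 90 ribosomal protein genes and none of 45 complex I subunit genes was called, where the shares over all genes would give few calls. Of the ribosomal genes 9 were apart downward and 4 upward, with a median of -0.45. Of the complex I genes 16 were apart downward and 2 upward, with a median of -0.52.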
